A study of Mus musculus with 6 samples.

Results

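The genes described here are Id1, Id2, Id3 and Id4, which encode the Id proteins, and Smad6 and Bambi, which encode 2 brakes on bone morphogenetic protein (BMP) signalling. They were measured in mouse mammary tumour cells recovered from lung metastases. Members were the probe sets to which the platform annotation gives exactly 1 of these 6 symbols. The rule found 10 probe sets of 45037 that are not array controls, for 6 of 18193 genes. Id2 and Id4 have 3 probe sets each and the other genes 1 each. For each gene the brightest probe set, by its mean over all 6 arrays, leads.

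MVT1 is a metastatic mouse mammary tumour line, used here as a single line tagged with green fluorescent protein (GFP). In every group 3000000 cells were injected into a vein of FVB/N mice, and GFP-positive cells were sorted from the lungs. The groups were tumour cells at 2 weeks from mice gavaged daily with GW2580, an oral drug that blocks the kinase of the CSF1 receptor, at 160 mg per kg from 1 week onwards; tumour cells at 2 weeks from mice gavaged with vehicle (hydroxypropylmethylcellulose and Tween-80) over the same time; and tumour cells at 1 week from mice of the vehicle arm, when gavage was only due to begin. Each group has 2 arrays. The labels call both vehicle groups control. Each vehicle group came from 2 mice per the design text. The sources used here give neither the number of mice behind the GW2580 arrays nor any ages, so p-values measure only the spread between these arrays, which may be technical.

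Id proteins are helix-loop-helix proteins that lack the basic region with which their relatives hold DNA. They pair with E proteins, the widely expressed basic helix-loop-helix factors encoded by Tcf3, Tcf4 and Tcf12, and keep them off DNA. BMP ligands bind receptor kinases that phosphorylate SMAD1, SMAD5 and SMAD9. These join SMAD4 and switch on target genes, among which the Id genes are the best known. SMAD6 is an inhibitory SMAD that blocks this step, and BAMBI is a receptor-like membrane protein without a kinase domain. Both are themselves induced by the pathway and so feed back on it. Id1 and Id3 are known from human and mouse breast cancer models as genes that help tumour cells colonise the lung.

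The start regions of the members that carry the differences below are shown from the RefSeq promoter table (GRCm38.p6), which held 4 of the 6 members; Id1 and Bambi are named only. Capitals mark matches, on either strand, to 4 short motifs that were chosen with the sequences in view: the GC-rich SMAD1 and SMAD5 element GGCGCC, the palindromic SMAD element GTCTAGAC, the CCAAT box (CCAAT or ATTGG) and the TATA-like TATAA (or TTATA). The Id3 and Id2 stretches are the 250 bases before the listed start, and the Smad6 stretch runs from 60 bases before its start to 4 bases after it.
Id3 (chr4:136143572-136143821, plus strand): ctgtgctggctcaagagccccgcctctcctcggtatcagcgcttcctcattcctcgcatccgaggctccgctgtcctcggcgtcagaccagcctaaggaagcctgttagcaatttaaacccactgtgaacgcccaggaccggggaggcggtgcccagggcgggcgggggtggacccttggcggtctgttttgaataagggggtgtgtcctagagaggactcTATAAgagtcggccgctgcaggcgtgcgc
Id2 (chr12:25096093-25096342, minus strand): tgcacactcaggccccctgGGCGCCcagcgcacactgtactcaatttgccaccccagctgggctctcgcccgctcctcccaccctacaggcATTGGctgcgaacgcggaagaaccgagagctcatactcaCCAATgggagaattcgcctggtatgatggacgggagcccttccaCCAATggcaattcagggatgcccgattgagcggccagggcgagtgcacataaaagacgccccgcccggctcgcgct
Smad6 (chr9:64022056-64022119, minus strand): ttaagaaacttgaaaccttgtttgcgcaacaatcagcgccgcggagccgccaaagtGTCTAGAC

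Id2 held 1 GGCGCC, beginning 231 bases before its start, and 3 CCAAT boxes beginning 159, 120 and 76 bases before it. Id3 held 1 TATAA match, 29 bases before its start, and none of the other motifs. Smad6 held GTCTAGAC across its start, beginning 4 bases before it, and 1 CCAAT box after its start. Id4, whose sequence is not shown, held 1 GGCGCC and 2 CCAAT boxes. Over all 32851 windows of 300 bases in the table, 11.9% held GGCGCC, 0.213% held GTCTAGAC, 37.4% held a CCAAT box and 24.9% held TATAA or TTATA. These matches describe letters in the windows and not sites in use. The GC content of the whole windows was 60% for Id3, 63.3% for Id2 and 66.3% for Smad6, against a median of 52.7% over all windows.

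Values are log2 expression values made by the authors with RMA, and all differences are on that log2 scale, with standard errors (SE) from limma. A gene was tested where the mean of its lead probe set over the 6 arrays reached 4.97, the 40th percentile of all non-control probe sets, and was called at a Benjamini-Hochberg adjusted p under 0.05 over the 13090 genes tested. Of the 6 members, 5 were tested; Id4 lay under this limit. Arrays of a group correlated at r = 0.988 (GW2580), 0.992 (2-week vehicle) and 0.992 (1-week vehicle) across genes, which are not independent replicates. On the second 2-week vehicle array the beta-actin signal was 1.20 higher at the 3' end of the transcript than at the 5' end. This is a sign of shorter RNA, and the other 5 arrays showed 0.38 to 0.50. For Gapdh the same measure was 0.92 on this array and -0.13 to -0.10 on the others. The same array gave the lowest Id1 and Id3 values, 9.16 and 9.41. BioB control probe sets averaged 10.2 on 1-week replicate 1 and 8.89 to 9.14 on the other arrays. The bearing of these checks on the differences below was not tested beyond leaving out arrays. Of 10 mammary epithelial markers 6 reached the limit, among them the keratin genes Krt8 and Krt18 (13.5 to 13.8 and 12.9 to 13.4) and Epcam (6.85 to 7.31). The E-cadherin gene Cdh1 (3.49 to 3.99), Cldn4, Cldn7 and Elf5 did not. In sorted bulk cells, fewer cells of a type and less RNA per cell cannot be told apart.

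**Figure D1:**
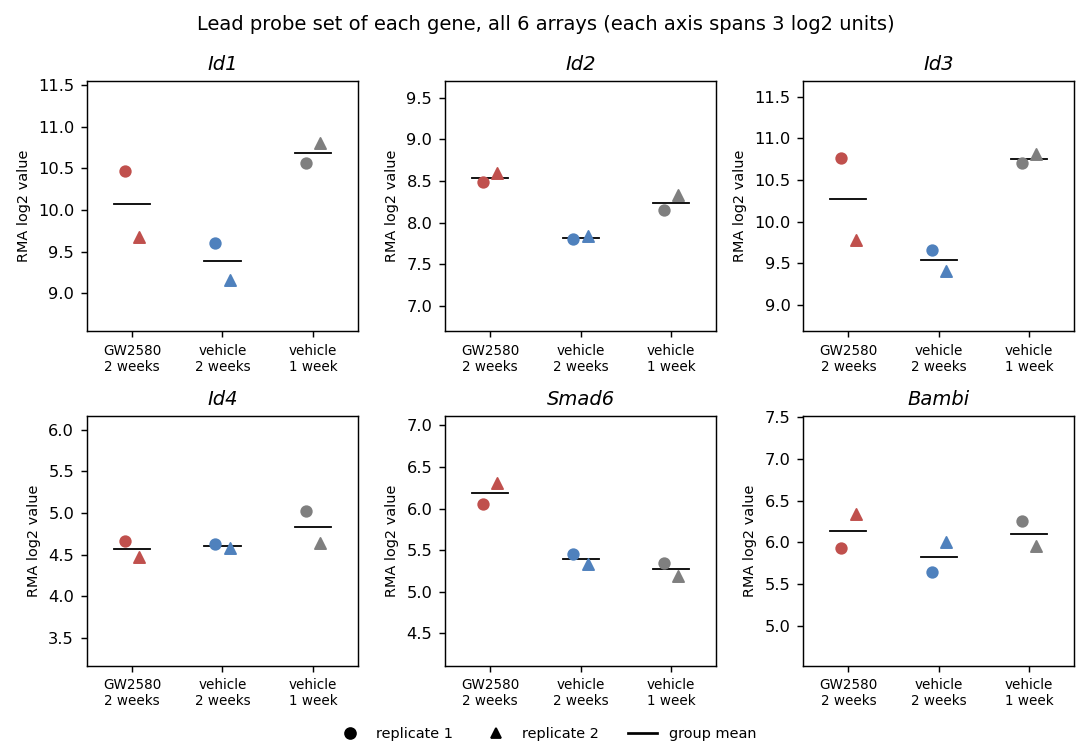
RMA log2 value (vertical axis, each spanning 3 units) of the lead probe set of each gene on all 6 arrays, by group; circles are replicate 1, triangles replicate 2 and bars group means. Id1 and Id3 read 9.16 to 9.66 on the 2-week vehicle arrays and 10.57 to 10.81 on the 1-week arrays, and the 2 GW2580 arrays lie apart; Smad6 reads 6.06 and 6.31 on the GW2580 arrays and at most 5.45 elsewhere.

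Between 1 and 2 weeks in vehicle mice, Id1 and Id3 fell together, by more than 2-fold each, while the other members did not pass the test. Of the 5 members tested, 2 fell, 0 rose and 3 did not pass. Across all genes tested 6.45% were called in this comparison, 2.71% as lower and 3.74% as higher. The labels describe the earlier time as micrometastatic and the later one as macrometastatic. Daily gavage of the vehicle also lay between them, and time and gavage cannot be told apart.

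Id1 read 9.61 and 9.16 on the 2-week vehicle arrays, against 10.57 and 10.80 on the 1-week arrays. Every 2-week value lay below every 1-week value. The group means were 9.38 ± 0.32 at 2 weeks and 10.69 ± 0.17 at 1 week (SD, n = 2 each), a difference of -1.30 (SE 0.26, limma adjusted p 0.0339), or 2.47-fold lower at 2 weeks.

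Id3, whose protein shares with Id1 most of its known partners, read 9.66 and 9.41 on the 2-week vehicle arrays, against 10.70 and 10.81 on the 1-week arrays. The groups again did not overlap. The means were 9.53 ± 0.18 and 10.76 ± 0.07 (SD, n = 2 each), and Id3 fell by 1.22 (SE 0.28, limma adjusted p 0.0436), or 2.33-fold. Both calls rested on all 4 vehicle arrays. Leaving out 1-week replicate 1 or 2 gave an Id1 difference of -1.42 or -1.19 (adjusted p 0.210 or 0.115), and leaving out 2-week vehicle replicate 1 or 2 gave -1.53 or -1.08 (adjusted p 0.0779 or 0.132). For Id3 the same 4 fits gave -1.27, -1.17, -1.35 and -1.10 (adjusted p 0.131 to 0.263). With all probe sets fitted together neither gene passed (adjusted p 0.0515 for Id1 and 0.0703 for Id3), and with a trended, robust variance model Id3 did not (adjusted p 0.0586).

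Id2, an Id gene with its own roles in lymphoid and mammary epithelial development, was lower at 2 weeks but did not pass. Its lead probe set read 7.80 and 7.84 at 2 weeks, against 8.15 and 8.33 at 1 week, with no overlap and a difference of -0.42 (SE 0.13, limma adjusted p 0.0914). The other 2 probe sets differed by -0.24 (SE 0.15) and -0.62 (SE 0.22), so all 3 pointed the same way. Of the 5 members tested, 3 had lower values at 2 weeks with no overlap between the groups, where 25.2% of all genes tested did, and 31.5% did so with higher values.

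Id4 read near the dim end of the arrays. Its lead probe set read 4.63 and 4.58 at 2 weeks, against 5.03 and 4.64 at 1 week, a difference of -0.23 (SE 0.16; adjusted p 0.558 in a limma fit of all 45037 probe sets). Its other 2 probe sets, made against the same accession, lay lower still, at 3.26 to 4.07 over the vehicle arrays, and differed by -0.56 (SE 0.13, adjusted p 0.0691 in that fit) and -0.18 (SE 0.13). At this brightness a difference is hard to detect.

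The feedback genes showed no called change over this interval. Smad6 read 5.45 and 5.33 at 2 weeks, against 5.34 and 5.19 at 1 week. These groups overlapped, and the difference was 0.12 with a 95% interval from -0.20 to 0.45 (limma adjusted p 0.660). Bambi read 5.65 and 6.003 at 2 weeks, against 6.25 and 5.95 at 1 week, also with overlap (difference -0.28, 95% interval -0.73 to 0.17, limma adjusted p 0.451). Leaving out 1 array at a time gave 0.05 to 0.20 for Smad6 and -0.45 to -0.10 for Bambi. Probe sets of Bambi and of its transcribed pseudogene Bambi-ps1 are annotated separately, and hybridisation of either RNA to the other's probes was not tested.

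With GW2580 at 2 weeks all 5 members tested read higher than with vehicle at 2 weeks, and 0 passed over all genes. Their differences were between 0.31 and 0.79, with a median of 0.72, against a median of -0.05 over all genes tested. At an unadjusted limma p under 0.05 there were 4 members, all higher, where 5.36% of all genes tested were higher and 12.6% lower at that level. With an adjusted p under 0.05, 0.367% of all genes were called, 0.0688% as higher and 0.298% as lower. Groups that did not overlap, with GW2580 higher, were seen for 4 of the 5 members and for 18.3% of all genes, with 31.5% lower. This comparison asked how inhibition of the CSF1 receptor changed the tumour cells.

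Id2 had the tightest values. Its lead probe set read 8.48 and 8.60 on the GW2580 arrays, against 7.80 and 7.84 on the 2-week vehicle arrays. The 2 groups were separated by more than the spread within either. The means were 8.54 ± 0.08 with GW2580 and 7.82 ± 0.02 with vehicle (SD, n = 2 each), a difference of 0.72 (SE 0.13, limma adjusted p 0.0647), or 1.65-fold. In the fit of all probe sets the other 2 probe sets differed by 0.71 (SE 0.15, adjusted p 0.0866) and 1.26 (SE 0.22, adjusted p 0.0597). The third probe set read 5.91 and 5.32 with GW2580, against 4.44 and 4.27 with vehicle. Id2 thus lay outside the threshold. Of 8 other settings 6 left it there, with limma adjusted p up to 0.115. It passed when arrays were set to a common 75th percentile (0.75, adjusted p 0.0483) and with the replicate number as a block (adjusted p 0.0477). Leaving out 1 array at a time gave 0.67 to 0.78.

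**Figure D2:**
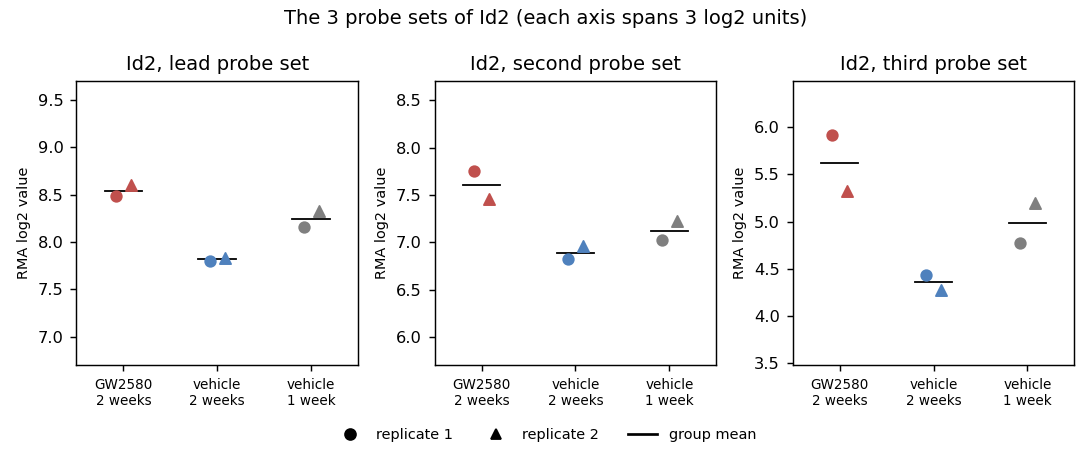
RMA log2 value (vertical axis, each spanning 3 units) of the 3 probe sets of Id2 on all 6 arrays, by group; circles are replicate 1, triangles replicate 2 and bars group means. On each probe set both GW2580 arrays lie above both 2-week vehicle arrays and above both 1-week arrays.

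Smad6 read 6.06 and 6.31 with GW2580, against 5.45 and 5.33 with vehicle at 2 weeks. The means were 6.18 ± 0.18 and 5.39 ± 0.09 (SD, n = 2 each), a difference of 0.79 (SE 0.14, limma adjusted p 0.0647), or 1.73-fold. The groups were well separated. The gene passed with a trended, robust variance model (adjusted p 0.0418), but 6 of its 7 other settings left it outside, with limma adjusted p up to 0.123. Leaving out 1 array at a time gave 0.67 to 0.92.

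Id1 and Id3 split the 2 GW2580 arrays. Id1 read 10.47 on replicate 1 and 9.68 on replicate 2 of GW2580, against 9.61 and 9.16 with vehicle at 2 weeks. Id3 read 10.77 and 9.78 with GW2580, against 9.66 and 9.41 with vehicle. For both genes replicate 1 of GW2580 lay close to the 1-week arrays, which read 10.57 to 10.81, while replicate 2 lay just above the higher of the 2-week vehicle arrays.

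The differences were 0.69 for Id1 (SE 0.26, 95% interval 0.08 to 1.30, limma adjusted p 0.227) and 0.74 for Id3 (SE 0.28, 95% interval 0.09 to 1.39, limma adjusted p 0.224). Single arrays moved both values by more than 1.5 times. Without replicate 1 of GW2580 they were 0.29 and 0.25, and without replicate 2 they were 1.09 (adjusted p 0.0661) and 1.23 (adjusted p 0.0429). Leaving out 2-week vehicle replicate 2 gave 0.47 for Id1.

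Bambi read 5.93 and 6.34 with GW2580, against 5.65 and 6.003 with vehicle, with overlapping groups and a difference of 0.31 (95% interval -0.14 to 0.76, limma adjusted p 0.442). Leaving out each of these 4 arrays in turn gave 0.10 to 0.52. Id4 read 4.66 and 4.48 with GW2580, against 4.63 and 4.58 with vehicle, a difference of -0.04 (95% interval -0.40 to 0.33).

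**Figure D3:**
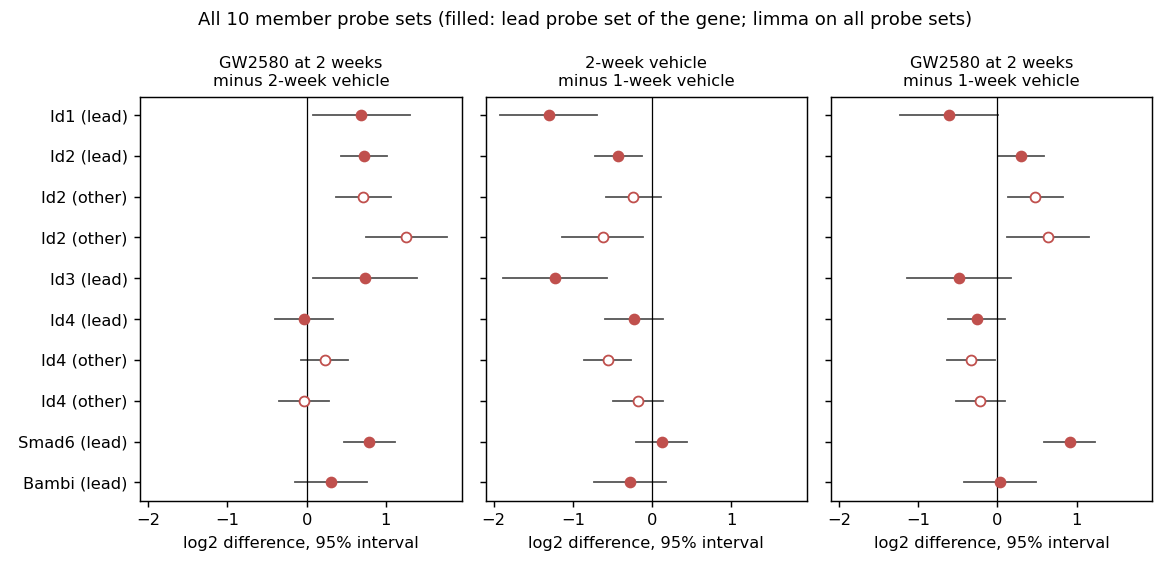
Log2 difference (horizontal axis, with 95% interval) of each of the 10 member probe sets in the 3 comparisons, from the limma fit of all 45037 probe sets; filled points are the lead probe sets. The Id2 probe sets and Smad6 lie between 0.71 and 1.26 for GW2580 against vehicle at 2 weeks, and Id1 and Id3 lie at -1.30 and -1.22 for 2 weeks against 1 week.

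Set against vehicle at 1 week, Smad6 was the member that passed in GW2580 cells. It read 6.06 and 6.31 with GW2580, against 5.34 and 5.19 at 1 week, and rose by 0.92 (SE 0.14, limma adjusted p 0.0412), or 1.89-fold. Of the 5 members tested 1 rose, 0 fell and 4 did not pass, where 0.512% of all genes were called, 0.359% as higher and 0.153% as lower. Groups that did not overlap were seen for 2 members with GW2580 higher (18.8% of all genes) and for 1, Id1, with GW2580 lower (27.9%). Without replicate 1 of GW2580 Smad6 still passed (1.04, adjusted p 0.0426). It did not pass without replicate 2 of GW2580 (0.79, adjusted p 0.138), replicate 1 or 2 of the 1-week group (0.99 and 0.84, adjusted p 0.278 and 0.119), or either 2-week vehicle array (0.92, adjusted p 0.0719).

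Id2 differed from 1 week by 0.30 (SE 0.13, limma adjusted p 0.289), with 8.48 and 8.60 against 8.15 and 8.33 and no overlap. Its other probe sets differed by 0.48 and 0.64. Id1 differed by -0.61 (SE 0.26, limma adjusted p 0.290) and Id3 by -0.48 (SE 0.28, limma adjusted p 0.435). Without replicate 1 of GW2580 these were -1.01 and -0.97, and without its replicate 2 they were -0.22 and 0.01. Bambi differed by 0.03 (95% interval -0.42 to 0.48), -0.18 without replicate 2 of GW2580 and 0.24 without replicate 1. Each pair of these 3 comparisons shares a group of arrays, so their values are not independent.

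The order of the group means was 1-week vehicle, GW2580, 2-week vehicle for Id1 and Id3, and GW2580, 1-week vehicle, 2-week vehicle for Id2. In these orders GW2580 did not differ from either vehicle group past the threshold, for all 3 genes. For Smad6 the order was GW2580, 2-week vehicle, 1-week vehicle, and the vehicle groups overlapped. For Bambi the 3 groups overlapped throughout.

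Array by array, Id1 and Id3 followed each other with a Pearson r of 0.98 over the 6 arrays. Id2 correlated with them at 0.50 and 0.52 and with Smad6 at 0.70, and Smad6 with Id1 and Id3 at -0.14 and -0.08. These are descriptions over 6 arrays in 3 groups that share a normalisation. Besides each other, the genes most like Id1 or Id3, out of those with a range of at least 1 log2 unit, were Nr4a1, an immediate early nuclear receptor gene (r = 0.97 with Id1 and 0.99 with Id3), the sterol carrier gene Stard4 (r = 0.97 with Id1) and the carbonic anhydrase gene Car2 (r = 0.97 with Id3). Nr4a1 read 10.40 and 9.38 with GW2580, 9.05 and 9.05 with vehicle at 2 weeks, and 10.19 and 10.52 at 1 week, so it showed the same split between the GW2580 arrays.

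Id2 was most like Nab2, which encodes a corepressor of EGR factors (r = 0.96), the salt-inducible kinase gene Sik1 (r = 0.95) and Chid1 (r = 0.92). Nab2 read 8.48 and 8.47 with GW2580, 7.37 and 7.54 with vehicle at 2 weeks, and 8.22 and 8.28 at 1 week. Smad6 was most like Lrrc26 (r = 0.99), Hcfc1r1 (r = 0.97) and the potassium channel gene Kcnh2 (r = 0.97). Bambi was most like Csf3, which encodes the granulocyte growth factor G-CSF (r = 0.98), the nucleotide receptor gene P2ry6 (r = 0.98) and the protease inhibitor gene Timp1 (r = 0.91). Csf3 read 7.05 and 7.80 with GW2580, 6.41 and 7.09 with vehicle at 2 weeks, and 7.44 and 7.14 at 1 week.

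Transcripts used as markers of other lung cells differed between arrays in several directions. Which cells made them was not tested. Of 10 fibroblast and smooth muscle markers 9 reached the limit and 0 were called, and the log2 of their summed signal was 12.0 and 10.5 on the GW2580 arrays, 10.8 and 10.9 with vehicle at 2 weeks, and 12.7 and 11.5 at 1 week. Like Id1 and Id3 it was higher on replicate 1 than on replicate 2 of GW2580 and higher at 1 week than at 2 weeks with vehicle. Its brightest gene, the collagen gene Col3a1, read 10.90 and 8.98 with GW2580, 9.29 and 9.49 with vehicle at 2 weeks, and 11.68 and 10.51 at 1 week, while Pdgfra, the receptor gene that marks fibroblasts, read 5.78 and 6.15, 6.49 and 6.67, and 6.59 and 6.30.

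Of 10 lung epithelial markers 10 reached the limit, with sums of 11.7 and 10.3 with GW2580, 11.3 and 11.1 with vehicle at 2 weeks, and 12.0 and 11.4 at 1 week, and their genes opposed each other. The club cell secretoglobin gene Scgb1a1 read 10.91 and 7.59 with GW2580, 6.49 and 8.08 with vehicle at 2 weeks, and 11.31 and 9.59 at 1 week. The surfactant genes of alveolar type II cells were instead high with vehicle at 2 weeks, where Sftpc read 9.98 and 9.25, against 7.90 and 7.19 with GW2580. Sftpd read 6.10 and 6.28 with GW2580, 7.499 and 7.13 with vehicle at 2 weeks, and 6.38 and 6.48 at 1 week. Sftpd rose by 0.89 between 1 and 2 weeks (limma adjusted p 0.0251), and with GW2580 against vehicle Sftpd fell by 1.12 (limma adjusted p 0.0445) and Sftpa1 fell by 1.78 (limma adjusted p 0.0489).

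The summed signal of the neutrophil list ran opposite to Id1 and Id3, but not all of its genes did. Of 8 listed 7 were measured, 6 reached the limit and 0 were called, with sums of 8.85 and 10.25 with GW2580, 10.10 and 10.76 with vehicle at 2 weeks, and 9.12 and 9.56 at 1 week. S100a8, a calcium-binding protein gene abundant in neutrophils and the brightest of the list, read 6.93 and 9.14, 9.46 and 10.20, and 7.77 and 8.37 on the same arrays. The protease gene Mmp9 of the same list read 6.93 and 6.62, 6.12 and 6.29, and 6.65 and 6.92. Over all arrays Csf3r read 5.65 to 5.82 and Cxcr2 5.14 to 5.52, and Ngp was highest on replicate 1 of GW2580 (5.43). Of 11 macrophage and monocyte markers 10 reached the limit and 0 were called, with sums of 11.7 and 12.3, 12.0 and 12.2, and 11.7 and 11.9. Their summed signal also ran opposite to Id1 and Id3, but not all of the genes did. Cd68 read 9.92 and 10.99, 10.76 and 10.998, and 9.66 and 10.15. Mrc1 read 5.67 and 6.23, 5.99 and 6.64, and 6.58 and 6.47. Of 10 lymphocyte and NK cell markers 8 were measured, 6 reached it and 0 were called, with sums between 8.58 and 8.84 on all arrays. The leukocyte gene Ptprc read 6.85 to 6.98 with GW2580, 6.97 to 7.11 with vehicle at 2 weeks and 7.57 to 7.73 at 1 week, and fell by 0.61 between 1 and 2 weeks (limma adjusted p 0.0387).

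Endothelial cells, in which Id1 and Id3 are strongly expressed, were followed with 10 markers. Of these 6 reached the limit, 0 were called, and Pecam1 (4.26 to 4.61), Tek (3.42 to 3.97), Emcn and Vwf lay under it. Their sums were 9.80 to 10.0 with GW2580, 9.01 to 9.45 with vehicle at 2 weeks and 9.62 to 9.88 at 1 week. The brightest of them, Plvap, read 9.43 and 9.06, 8.34 and 7.06, and 9.03 and 8.79. The endothelial receptor gene Tie1 read 5.15 and 6.07, 6.06 and 6.20, and 5.23 and 5.30, and so ran the other way. How many such cells remained after the GFP sort was not measured. The part of any of these lists in the Id1 and Id3 differences was not tested.

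**Figure D4:**
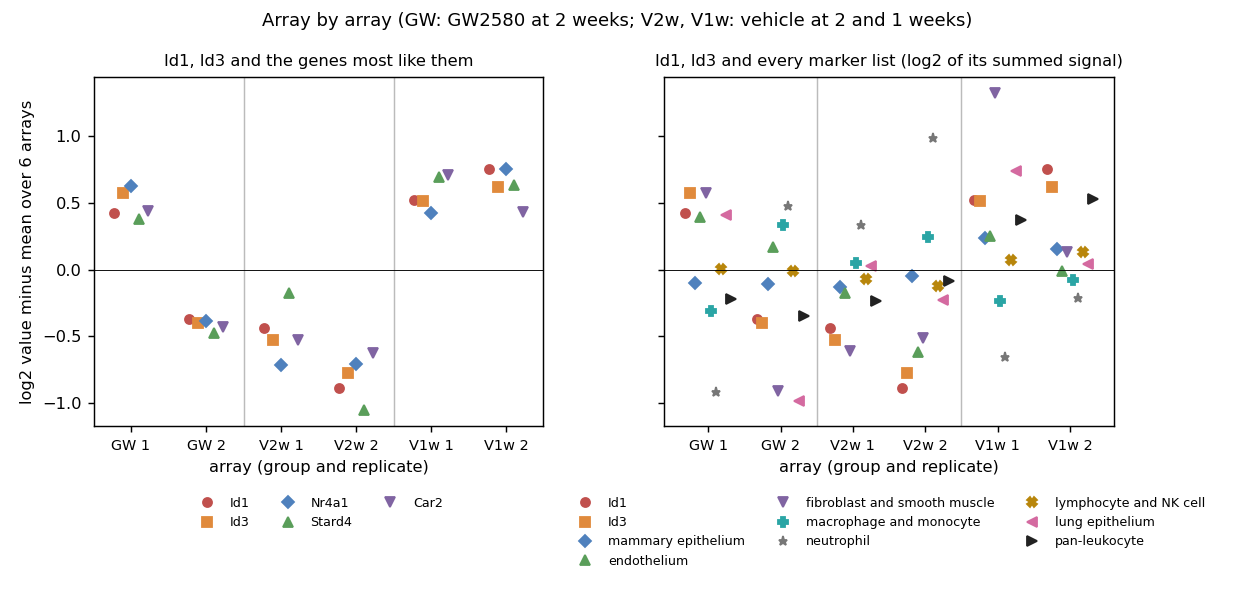
Log2 value minus its mean over 6 arrays (vertical axis) on each array (horizontal axis; GW, V2w and V1w with the replicate number). Left, Id1 and Id3 with Nr4a1, Stard4 and Car2. Right, Id1 and Id3 with the log2 summed signal of all 8 marker lists. Id1 and Id3 lie above their mean on replicate 1 of GW2580 and on both 1-week arrays and below it on the other 3 arrays. The fibroblast sum and, narrowly, the lymphocyte sum have the same signs. The neutrophil sum and the macrophage sum have the opposite ones.

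In the rest of the BMP pathway no gene tested passed in any of the 3 comparisons. A list of 53 genes, from ligands to the E protein partners, had probe sets for 49, and 34 were tested. In limma 0 of the 34 passed between 2 weeks and 1 week, with 6 higher and 4 lower at an unadjusted p under 0.05 (14.1% and 9.45% of all genes tested), a median of 0.04 and differences from -0.72 to 0.57. Over all genes the median was 0.02. Between GW2580 and vehicle at 2 weeks 0 passed in limma, with 3 higher and 1 lower at that level (5.36% and 12.6% of all genes), a median of 0.005 and differences from -0.40 to 0.45. Between GW2580 and 1 week 0 passed in limma, with 2 higher and 1 lower at that level (6.64% and 10.4% of all genes).

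Among ligands, Bmp2, Bmp5 and Bmp6 lay under the limit. Bmp7 read 8.35 and 8.54 at 2 weeks, against 7.78 and 7.97 at 1 week (difference 0.57, SE 0.18, limma adjusted p 0.100), but its other probe sets differed by 0.01 and 0.18. Bmp4 differed by -0.55 (SE 0.22, limma adjusted p 0.184) over the same interval and by 0.36 with GW2580 against vehicle at 2 weeks. With GW2580 the ligand with the next smallest p was Gdf2, at 0.19 (SE 0.13).

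Of 7 receptor and co-receptor genes 6 had positive differences between 2 weeks and 1 week, where 6920 of all 13090 genes tested did. At an unadjusted limma p under 0.05, 3 were higher, where 14.1% of all genes were. The type II receptor gene Bmpr2 differed by 0.54 (SE 0.16, limma adjusted p 0.0913; 0.12 and -0.01 on its other probe sets) and the activin receptor gene Acvr2b by 0.54 (SE 0.18, limma adjusted p 0.113), with -0.04 and -0.24 on the other probe sets of Acvr2b. With GW2580 against vehicle 1 of the 7 had a positive difference on its lead probe set, where 5464 of all 13090 genes tested did. Acvr2a differed by -0.37 (SE 0.15; -0.24 on its other probe set). Bmpr2 differed by -0.29 (SE 0.16), with -0.22 and 0.23 on its other probe sets. Acvr2b differed by -0.23 (SE 0.18), with 0.19 and 0.25 on its other probe sets. Smad1, a transducer of the BMP signal, differed by 0.57 at 2 weeks (SE 0.20, limma adjusted p 0.135) and by 0.53 and 0.62 on its other probe sets. With GW2580 it differed by -0.30 (SE 0.20), and Smad5, whose protein the same receptors phosphorylate, by 0.19 (SE 0.17). The common SMAD gene Smad4 differed by 0.24 (SE 0.13) between 2 weeks and 1 week.

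Among extracellular antagonists, Nbl1, which encodes a BMP-binding secreted protein, read 6.03 and 6.17 at 2 weeks, against 6.62 and 6.51 at 1 week (difference -0.47, SE 0.12, limma adjusted p 0.0650). Bmper differed by -0.72 (SE 0.30, limma adjusted p 0.191). Noggin, follistatin and sclerostin (Nog, Fst, Sost) lay under the limit. With GW2580 the differences were 0.14 for Grem1 (SE 0.13) and 0.11 for Twsg1 (SE 0.13; 0.31, 0.86 and -0.13 on its other probe sets).

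The intracellular brakes beside Smad6 had positive differences for 5 of 6 genes with GW2580 against vehicle at 2 weeks. In limma 0 passed, with 3 at an unadjusted p under 0.05. Over all genes tested 5464 of 13090 had positive differences, and 5.36% were higher at that level. Skil and Ski, which encode SMAD corepressors, differed by 0.45 (SE 0.14, limma adjusted p 0.164) and 0.39 (SE 0.16, limma adjusted p 0.251). The inhibitory SMAD gene Smad7 read 8.81 and 8.60 with GW2580, against 8.21 and 8.43 with vehicle (difference 0.39, SE 0.15, limma adjusted p 0.239). Over time Ski differed by -0.27 (0.27 on its other probe set) and Smad7 by -0.24.

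Of the 4 other BMP targets on the list 3 were tested. The homeobox gene Msx1 differed by -0.33 between 2 weeks and 1 week (SE 0.14, limma adjusted p 0.209; 0.13 on its other probe set) and the HES family repressor gene Hey1 by -0.18 (SE 0.15). With GW2580 against vehicle at 2 weeks Msx1 differed by 0.18 (-0.11 on its other probe set) and Hey1 by 0.22. The E protein genes had differences of 0.34 for Tcf3 (SE 0.24), 0.25 for Tcf4 (SE 0.16) and 0.38 for Tcf12 (SE 0.14) at 2 weeks compared with 1 week, and -0.40, 0.00 and -0.18 for GW2580 against vehicle at 2 weeks. None of these passed (limma adjusted p 0.158 to 0.999). The other probe sets of Tcf3 differed by -0.44 and 0.27 over time and by 0.46 and -0.21 with GW2580, so they did not share a direction. Those of Tcf4 differed by 0.10, 0.25, 0.56, 0.54 and -0.19 over time. With GW2580 against vehicle at 2 weeks the same Tcf4 probe sets differed by 0.13, 0.05, -0.06, -0.18 and 0.20.

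**Figure D5:**
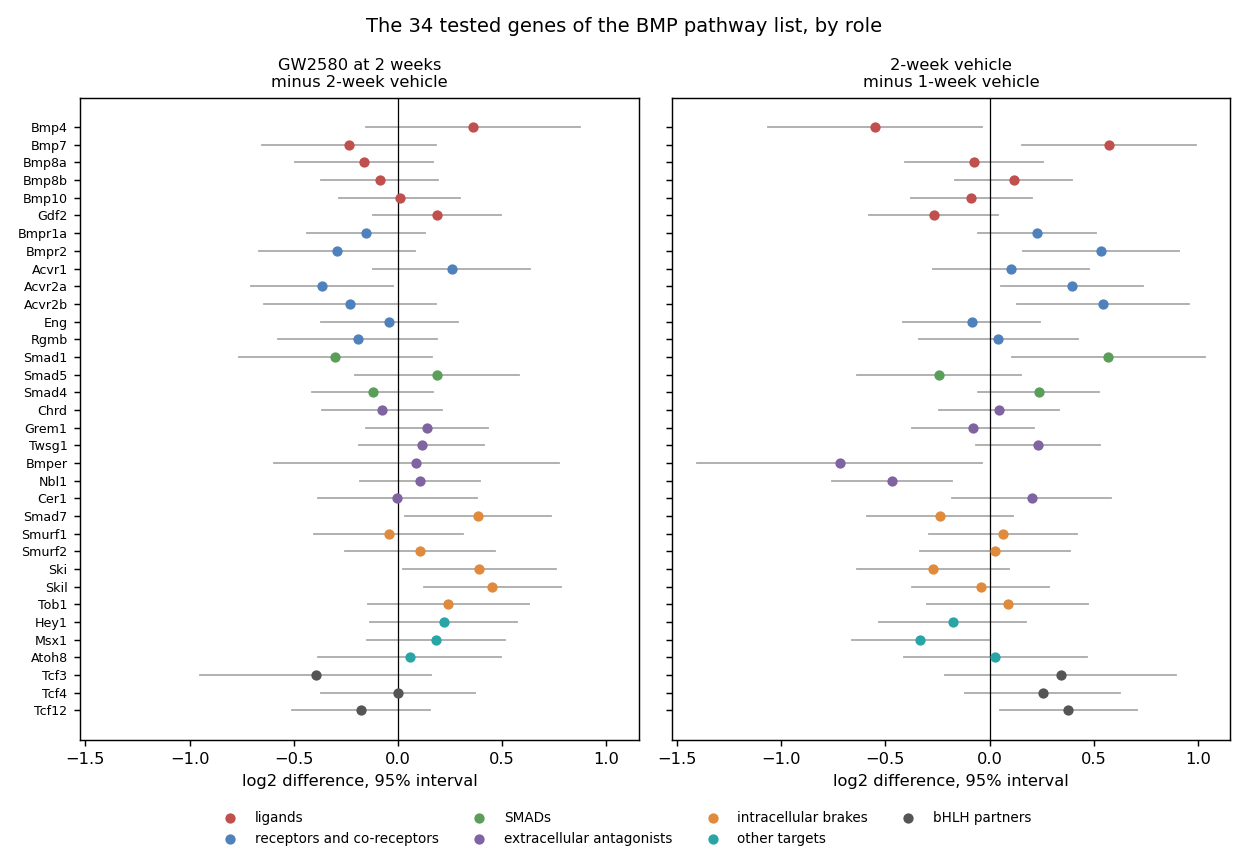
Log2 difference (horizontal axis, with 95% interval) of the 34 tested genes of the BMP pathway list, coloured by role, for GW2580 against vehicle at 2 weeks (left) and 2-week against 1-week vehicle (right). All lie between -0.72 and 0.57, and none passed the adjusted threshold.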

How the data were processed

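A table of 45101 probe sets on 6 Affymetrix arrays was used. Its log2 values were computed by the authors with RMA, named in the submitters' processing notes; a version is not given there. RMA corrects background, quantile-normalises arrays and summarises probes, which removes any change common to most genes. From the table, 64 control probe sets were left out. Symbols came from the platform annotation, and 34741 of 34945 probe sets with 1 symbol matched RefSeq by gene identifier. The probe set with the highest mean stood for its gene, and 13090 genes with a mean of at least 4.97 were tested with limma 3.58.1 in R 4.3.3 (a mean per group, lmFit, eBayes, Benjamini-Hochberg; 3 residual and 4.97 prior degrees of freedom). Arrays were grouped by their titles. An exact permutation test of 2 arrays against 2 cannot go below p = 0.333, so none was used. Precision is limited by the number of arrays. On simulated arrays with 200 changed genes of 13090, 2-week against 1-week vehicle recovered 11.3% of genes changed 1.5-fold, 57.3% of those changed 2-fold and 93.2% of those changed 4-fold. All 200 were raised, with noise drawn separately for each gene, so these rates hold for that setting only. In the real comparison 844 genes were called, in both directions. Alternatives were the filter, the choice of probe set, the scaling, the variance model, the arrays in the fit, the replicate block and each array left out. Named genes were the members, the E protein genes, list genes that were called or had the 2 smallest p in their role, and the 3 genes most correlated with each member. Members, lists and motifs were chosen with earlier results of these data known.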

Additional observations from a re-analysis of the deposited data

How the results depend on the processing

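Each result was recomputed under 8 other settings and without each array in turn; Id4 could be recomputed only without a filter. Settings other than leaving out an array kept every member's direction. Fitted on all probe sets, Id1 (-1.30, adjusted p 0.0515), Id3 (-1.22, adjusted p 0.0703) and Smad6 against 1 week (0.92, adjusted p 0.0889) did not pass, so 0 members were called in each. With a trended, robust variance Id3 did not pass (-1.22, adjusted p 0.0586), leaving 1 member over time, and Smad6 passed for GW2580 against vehicle (0.79), making 1. Fitted on only the 4 arrays compared, Smad6 against 1 week did not pass (0.92, adjusted p 0.0719; 0 members), and the stricter filter leaves it untested (0 members). Id2 passed for GW2580 against vehicle at a common 75th percentile (0.75; 1 member) and with the replicate number as a block (0.72, adjusted p 0.0477; 1 member). That block also called 3 pathway genes over time (Bmp7, Acvr2b and Smad1). Same-numbered arrays deviated together at r = 0.009 (GW2580 and 2-week vehicle), 0.29 (GW2580 and 1-week vehicle) and 0.002 (2-week and 1-week vehicle), so the numbers were not taken to pair samples. Over all genes, GW2580 against vehicle had 48 calls, but 74 without a filter, 193 on all probe sets, 131 with the trended variance, 0 on 4 arrays and 154 with the block. GW2580 against 1 week had 67, but 36, 139, 24 and 182 on all probe sets, with the trended variance, on 4 arrays and with the block.

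Leaving out an array gave 0 to 2 members over time (0 to 1059 genes in all, against 844; 0 and 413 without 1-week replicate 1 and 2, and 115 and 157 without 2-week vehicle replicate 1 and 2), 0 to 1 for GW2580 against vehicle (0 to 167) and 0 to 1 against 1 week (0 to 169). A lone array was assumed to vary like the other groups. Over time Id1 ranged from -1.53 to -1.08 and Id3 from -1.35 to -1.10. For GW2580 against vehicle Id3 ranged from 0.25 to 1.23. Against 1 week Id3 ranged from -0.97 to 0.010, Smad6 from 0.79 to 1.04 and Bambi from -0.18 to 0.24, so Id3 and Bambi turned direction. The cause of these changes was not tested beyond the fewer arrays.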

Other observations

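One of the 5 probe sets of the Id partner gene Tcf12, chosen after its values were seen, read 8.62 and 7.81 with GW2580, 6.99 and 6.65 with vehicle at 2 weeks, and 7.82 and 8.32 at 1 week. It differed by -1.25 between 2 weeks and 1 week (SE 0.28, adjusted p 0.0658 in the limma fit of all probe sets) and by 1.40 between GW2580 and vehicle at 2 weeks (SE 0.28, adjusted p 0.0783). The lead probe set of Tcf12 and the next in mean signal differed by 0.38 and 0.32 over time, and by -0.18 and -0.06 with GW2580. The probe set next below the chosen one in mean signal differed by 0.39 over time and by -0.17 with GW2580. The dimmest differed by -0.32 (SE 0.13) over time and by 0.39 (SE 0.13) with GW2580, in the directions of the chosen one. Its adjusted p was 0.286 and 0.229 in the same limma fit. Which transcripts each probe set detects was not examined here. The probe set annotated to the pseudogene Bambi-ps1 read 4.998 and 5.34 with GW2580, 5.29 and 5.20 with vehicle at 2 weeks, and 5.61 and 5.17 at 1 week.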
